A study of Homo sapiens with 4 samples.

Results

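Of the 48 nuclear receptor genes listed for this work, 10 are described here. They are the retinoic acid receptor genes *RARA* and *RARG*, the retinoid X receptor genes *RXRA* and *RXRB*, the vitamin D receptor gene *VDR*, the thyroid hormone receptor genes *THRA* and *THRB*, and the orphan receptor genes *NR2F2*, *NR2F6* and *ESRRA*. They were taken by gene symbol from the 23287 symbols of the RNA-seq files, and all 10 were found and retained. T47D cells, an established line from a human breast carcinoma, carry the progesterone receptor (PR). It was treated with 10 nM of the synthetic progestin R5020 or with the vehicle, ethanol (EtOH), for 3 h before RNA isolation, and with 10 nM R5020 for 1 h before PR ChIP-seq. Cells were plated in medium with charcoal-stripped serum beforehand, so all groups had been kept in medium stripped of most steroids. This period was longer for ChIP-seq (3 days) than for RNA isolation. There was 1 library per condition, so the differences below could not be checked in replicates and carry no p-value. The RNA is bulk RNA, in which fewer cells of a type and less RNA per cell cannot be told apart.

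Receptors of this family are transcription factors that bind DNA as single proteins or as pairs. RARs, VDR and the thyroid hormone receptors bind mostly as heterodimers with an RXR, so the RXRs are partners shared by the other families. RARs answer to retinoic acid, VDR to the hormonal form of vitamin D, and THRA and THRB to thyroid hormone. NR2F2 (COUP-TFII), NR2F6 (EAR2) and ESRRA (estrogen-related receptor alpha) are called orphan receptors because no hormone was known for them when they were found, and ESRRA works with PGC-1 coactivators on genes of energy metabolism.

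After R5020, 3 of the 10 receptor genes were higher by 1.5-fold or more and 3 were lower by as much, and the other 4 changed less. *VDR*, *THRB* and *ESRRA* were higher and *RARA*, *RARG* and *NR2F6* were lower. *RXRA*, *RXRB*, *THRA* and *NR2F2* stayed under the threshold. Genes that reached an FPKM of 1 in either condition were retained, and of these 11018 genes 7.67% were higher and 4.14% lower by the same threshold. Of the genes past it, 65% were higher, against 45.3% when reads from coverage scaled to the total were used. A change is the log2 ratio of FPKM + 1 in R5020 to FPKM + 1 in EtOH. FPKM, the fragments of a transcript divided by its length and the library size, is summed over the transcripts of a gene, and the pseudocount of 1 understates the change of low genes. The median change was −0.22 over the 10 receptor genes and 0.01 over all 11018 genes.

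**Figure D1:**
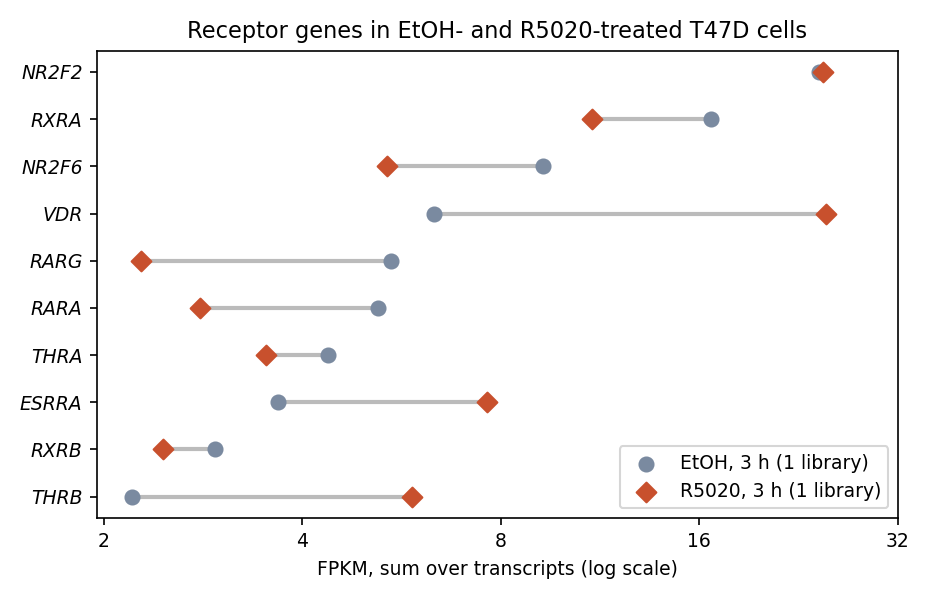
FPKM of the 10 receptor genes (sum over transcripts, log scale) in EtOH (circles) and R5020 (diamonds), 1 library each, ordered by the EtOH level. *VDR* lies at 6.35 in EtOH and 24.9 in R5020, while *NR2F2* lies at 24.3 and 24.6.

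By the deposited FPKM, which is divided by transcript length, *NR2F2* was the highest of the 10 in EtOH, at 24.3, followed by *RXRA* with 16.6 and *NR2F6* with 9.26. The lowest were *RXRB* with 2.95 and *THRB* with 2.21. In R5020 *VDR* stood first with an FPKM of 24.9, next to *NR2F2* with 24.6, and *RARG* was last with 2.28. The order was different by the midpoints of the intervals deposited beside the FPKM. By midpoints *NR2F6* was at 2.54 in EtOH, under *VDR* at 6.36, *RARG* at 5.47 and *RARA* at 5.24, and in R5020 it was the lowest at 1.47. *RXRA* was at 7.91 and 5.23 and *ESRRA* at 2.31 and 4.71 by midpoints, so the places of these 3 genes depend on the value taken. No spread between libraries exists from which to say which neighbours in the order differ.

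The vitamin D receptor gene had the largest change of the 10. *VDR*, on chromosome 12 (hg19, 48235320 to 48298814), was at 6.35 FPKM in EtOH and 24.9 in R5020, a log2 change of 1.82. Of the 11018 genes, it had the 107th largest rise. The deposited coverage, expressed as reads of 50 nt, gave 2831 for EtOH and 10863 for R5020. All 3 of its transcripts in the files share 1 start site, and each was higher in R5020. NM_000376 was at 3.79 FPKM in EtOH and 10.5 in R5020. NM_001017535 had 2.56 and 10.4. NM_001017536 was listed at 0 in EtOH and had 4.04 in R5020. The deposited intervals of all 3 were apart between the conditions. These intervals describe the estimate within 1 library and not the spread between cultures.

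The thyroid hormone receptor genes differed from each other. *THRB*, on chromosome 3 (24158645 to 24536313), was at 2.21 FPKM in EtOH and 5.87 in R5020, a log2 change of 1.10. *THRA*, on chromosome 17 (38218446 to 38250120), had 4.38 and 3.53, a log2 change of −0.25. *THRB* was thus at 0.504 times the level of *THRA* in EtOH and at 1.66 times in R5020. Within *THRB*, NM_000461 was at 1.19 (interval 1.06 to 1.32) in EtOH and 1.44 (1.28 to 1.60) in R5020, which overlap. NM_001128176 was at 0.296 (0.227 to 0.365) and 1.92 (1.73 to 2.10). NM_001128177 was at 0.721 (0.615 to 0.826) and 2.52 (2.31 to 2.72). Both were thus apart by their intervals. The 3 transcripts have the same start site and were told apart by the authors' software within it, so the share of each is less certain than the sum. Within *THRA*, NM_199334 was at 3.23 FPKM in EtOH and 2.31 in R5020, and NM_003250 had 1.15 and 1.22. The 3′ end of *THRA* overlaps *NR1D1*, a clock repressor gene on the other strand, by 1084 bases. *NR1D1* was at 0.967 in EtOH and 0.646 in R5020. Whether strand was used in counting is not given in the sources used here, so reads in the overlap cannot be assigned.

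Of the orphan receptors, *ESRRA*, on chromosome 11 (64073044 to 64084210), was higher in R5020. It was at 3.68 FPKM in EtOH and 7.63 in R5020, a log2 change of 0.88, from 772 and 1562 reads. It has processed pseudogenes on chromosome 13 and shares 46 bases with *TRMT112*, a highly expressed gene at 102 in EtOH and 94.2 in R5020. Since reads with several positions were discarded, the level of *ESRRA* is uncertain. *NR2F6*, on chromosome 19 (17342694 to 17356151), was lower in R5020, at 9.26 FPKM in EtOH and 5.37 in R5020, a log2 change of −0.69. *NR2F2*, on chromosome 15 (96869157 to 96883492), was nearly level, at 24.3 FPKM in EtOH and 24.6 in R5020, from 11119 and 10979 reads. By reads scaled to the total its log2 change was −0.06, of the other sign. Only NM_021005 of its 4 transcripts was above 0. The relative gene *NR2F1* (COUP-TFI) was at 2.37 in EtOH and 0.730 in R5020, a log2 change of −0.96.

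The call of *NR2F6* depends on which deposited value is taken. Its FPKM of 9.26 in EtOH lay above its own interval of 2.04 to 3.03, and its 5.37 in R5020 above 1.13 to 1.80. With the midpoints of the intervals the log2 change was −0.52, under the threshold. The FPKM of *ESRRA* (interval 1.96 to 2.66 in EtOH and 4.15 to 5.27 in R5020) and *RXRA* (7.43 to 8.39 and 4.84 to 5.62) also lay above their intervals, as did that of NM_199334 of *THRA*. For *ESRRA* the midpoints gave 0.79, still past the threshold. These 4 were among 18 transcripts of the 10 genes that were above 0 in a condition, all with a status of OK.

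Both retinoic acid receptor genes were lower in R5020. *RARG*, on chromosome 12 (53604350 to 53626040), was at 5.45 FPKM in EtOH and 2.28 in R5020, a log2 change of −0.98, the 153rd largest fall. *RARA*, on chromosome 17 (38465423 to 38513895), had 5.21 and 2.80, a log2 change of −0.71. The remaining family member, *RARB*, was at 0.0609 and 0.0872 and was not retained. The sum of *RARA* and *RARG* was 10.7 in EtOH and 5.08 in R5020.

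In both genes the lower level lay mostly with 1 of the start sites. *RARG* is on the minus strand and has an outer start at 53626040 and an inner start at 53614197. The transcripts of the outer start summed to 2.54 FPKM in EtOH and 2.28 in R5020, a log2 change of −0.11. The inner start was represented by NM_001042728, at 2.91 in EtOH, with an interval of 2.50 to 3.33 from 766 reads, and it was listed at 0 in R5020, where its interval reached 0.0169. Of the outer transcripts, NM_000966 was at 1.86 in EtOH and 0.598 in R5020, and NM_001243730 at 0.680 and 1.68. The fall of the *RARG* sum was therefore nearly all in the inner start, while the outer transcripts exchanged their order. The transcripts share most of their exons, and a value listed at 0 can be an assignment of shared reads to other transcripts.

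*RARA* is on the plus strand, with the outermost start at 38465423. NM_000964, from that start, was at 2.97 FPKM in EtOH and 1.08 in R5020, with intervals apart, a log2 change of −0.93. NM_001145301, which starts at 38474473, had 2.24 and 1.72, with overlapping intervals, a log2 change of −0.25. The outer transcript made up 57.0% of the *RARA* FPKM in EtOH and 38.6% in R5020. Across all genes, 8.8% of the 11708 retained start sites were higher by this threshold and 5.62% were lower.

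**Figure D2:**
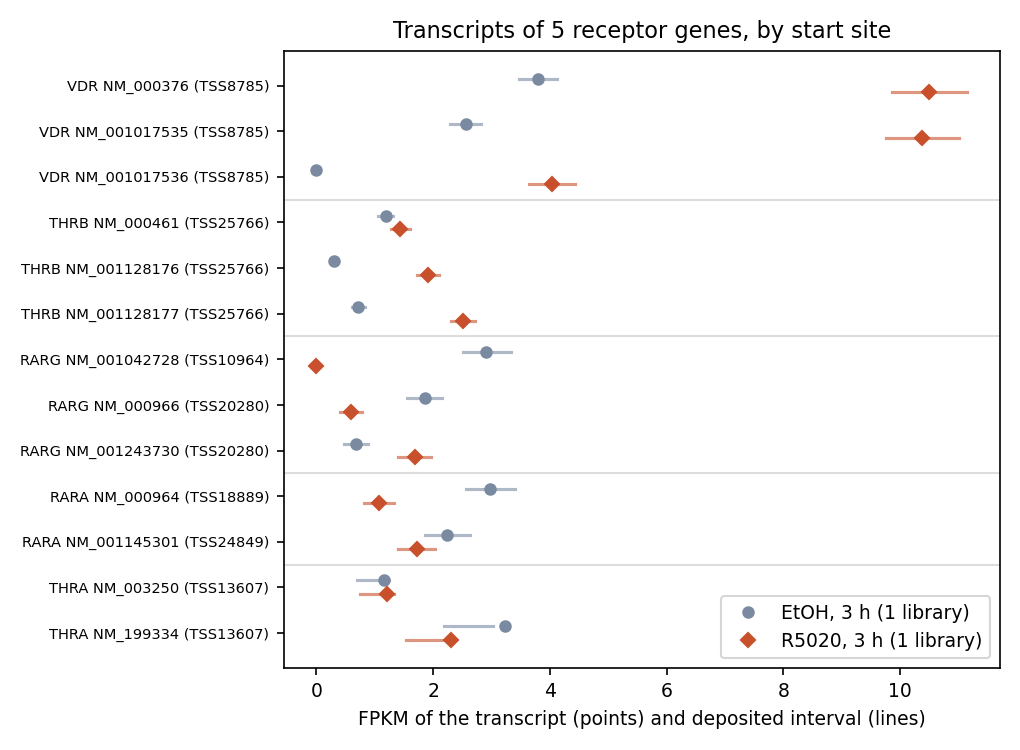
FPKM of each transcript above 0 of *VDR*, *THRB*, *RARG*, *RARA* and *THRA* in EtOH (circles) and R5020 (diamonds), 1 library each, with the deposited interval as a line and the start-site identifier of the files in parentheses. All *VDR* transcripts are to the right in R5020, and NM_001042728 of *RARG* moves from 2.91 to a listed 0.

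The RXR genes themselves were lower or nearly level. *RXRA*, on chromosome 9 (137218316 to 137332431), was at 16.6 FPKM in EtOH and 11.0 in R5020, a log2 change of −0.56 against a threshold of 0.58 (1.5-fold), so it fell just short. Without the pseudocount the ratio of R5020 to EtOH was 0.660, past 1.5-fold. *RXRB*, on chromosome 6 (33161365 to 33168432), had 2.95 and 2.46, a log2 change of −0.19. *RXRB* is also listed on 5 alternative haplotypes of chromosome 6, all at 0. *RXRG* was listed at 0 in both conditions.

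Set side by side, the summed FPKM of *RXRA* and *RXRB* was 19.6 in EtOH and 13.4 in R5020, while that of *RARA*, *RARG*, *VDR*, *THRA* and *THRB*, which pair with RXR, was 23.6 and 39.4. *VDR* made up 26.9% of the latter sum in EtOH and 63.2% in R5020. The share of *RARA* was 22.1% and 7.10%, and that of *RARG* 23.1% and 5.79%. Other retained receptor genes whose products pair with RXR were left out of that sum, so the shares hold within it only. They include *NR1H3* at 3.56 in EtOH and 2.25 in R5020, *NR1H2* at 2.90 and 2.65, *PPARD* at 3.22 and 2.21, and *PPARA* at 0.844 and 1.06. *VDR* mRNA was at 0.324 times the RXR sum in EtOH and at 1.85 times in R5020. By interval midpoints, where *RXRA* is lower, the RXR sum was 10.6 and 7.48 and these ratios were 0.601 and 3.34, higher in R5020 as before but of another size. These are mRNA levels, and protein was not measured.

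Of the other 38 nuclear receptor genes, 15 were retained, of which 0 were higher by 1.5-fold or more in R5020 on log2(FPKM + 1). Without a pseudocount, or with one of 0.1, 2 of the 15 were, the mineralocorticoid receptor gene *NR3C2* (0.594 in EtOH and 1.15 in R5020, ratio 1.94) and *NR5A2* (0.758 and 1.34, ratio 1.76). There is no test behind these counts. Those lower by as much included *NR2F1*, given above, the estrogen receptor gene *ESR1* (17.2 in EtOH and 10.9 in R5020, log2 change −0.61) and the PR gene *PGR* (23.7 and 15.3, −0.60). The median change of the 15 was −0.21, beside −0.22 for the 10 receptor genes.

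**Figure D3:**
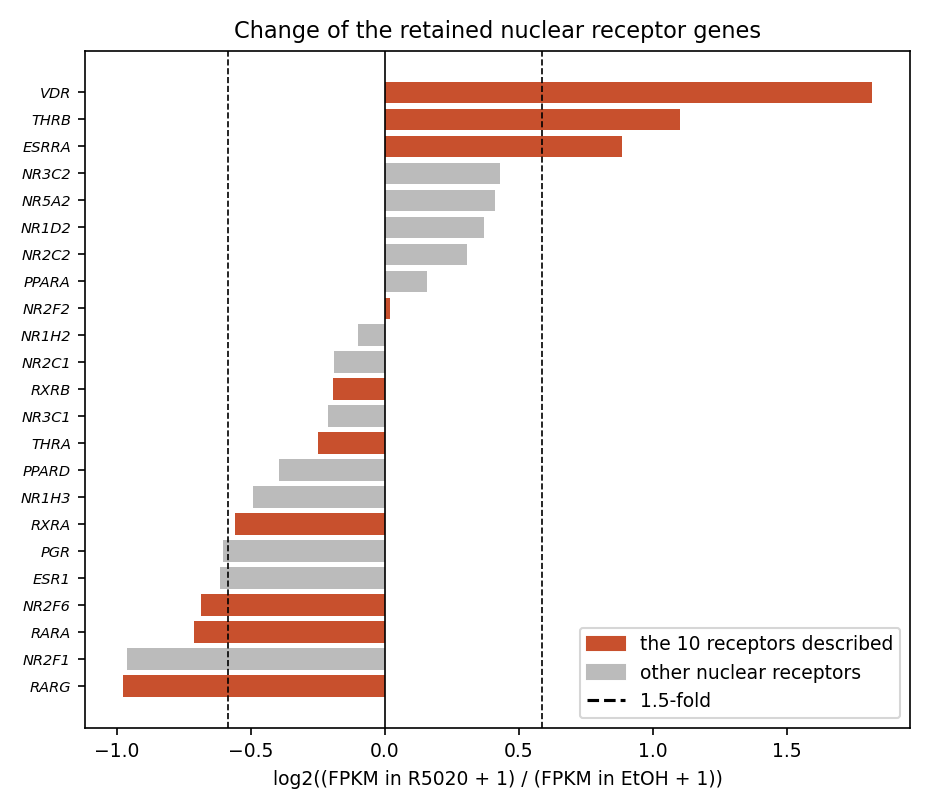
Log2 change of (FPKM + 1) between R5020 and EtOH for retained nuclear receptor genes, 1 library per condition, with the 10 described here in red and others in grey, and dashed lines at 1.5-fold. *VDR*, *THRB* and *ESRRA* lie beyond the line on the right, and *NR3C2*, next at 0.43, passes 1.5-fold only with a pseudocount of 0.1 or none.

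The retained receptor nearest to each of the 10 in log2(FPKM + 1) of both conditions was sought among the other 15, and is given for 7. The closest match was *ESR1* to *RXRA*, at a distance of 0.0444, and *NR1H2* (liver X receptor beta, 2.90 in EtOH and 2.65 in R5020) to *RXRB*, at 0.0777. *PGR* was nearest to *NR2F2* (0.655) and *NR2C1* to *NR2F6* (0.524) and *ESRRA* (0.766). For *VDR* the nearest, *NR1D2*, was 1.20 away, and for *THRB* it was *NR1H2* at 0.957. The likeness rests on 2 values a gene, the FPKM as deposited, and is a description of level more than of response.

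Few genes that supply or answer to the ligands were expressed. In retinoid supply and turnover, 5 of 17 genes were retained, 2 were at least 1.5-fold higher and 0 lower. *RDH10*, which oxidises retinol, was at 7.20 in EtOH and 11.9 in R5020 (log2 change 0.66), and *ALDH1A3*, which makes retinoic acid from retinal, at 3.15 and 5.66 (0.68). *CRABP2*, which carries retinoic acid to the receptor, was high at 122 and 89.4 (−0.45). *CYP26A1*, which degrades retinoic acid, was at 0.0148 and 0.608, too low to be retained. Of 12 retinoic acid response genes, 3 were retained. *PDK4*, a kinase that inhibits pyruvate dehydrogenase, was at 0.147 in EtOH and 4.03 in R5020 (2.13), *ELF3*, an epithelial transcription factor gene, at 3.52 and 0.722 (−1.39), and *RARRES3* at 1.45 and 1.35 (−0.06).

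For vitamin D, 2 of 14 genes were retained, and neither passed 1.5-fold, *CYP2R1*, a 25-hydroxylase gene, at 5.70 and 4.83 and the calcium channel gene *TRPV6* at 6.42 and 6.48. *CYP24A1*, a target strongly induced by liganded VDR, was at 0.00797 in EtOH and listed at 0 in R5020. For thyroid hormone, 2 of 12 were retained and neither passed on log2(FPKM + 1). *KLF9* was at 1.38 and 2.09 (0.38) and *HR*, a corepressor gene, at 2.29 and 1.22 (−0.57). Without the pseudocount both pass 1.5-fold, *KLF9* as higher and *HR* as lower.

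Of 15 genes of ESRRA coactivators and targets, 13 were retained and 3 were at least 1.5-fold higher. The higher ones were *PDK4*, *SOD2*, the mitochondrial superoxide dismutase gene, at 8.45 in EtOH and 23.7 in R5020 (1.39), and *PPRC1*, a PGC-1 related coactivator gene, at 5.43 and 9.12 (0.65). The respiratory and metabolic genes *ATP5B* (93.0 and 94.4), *CYCS* (23.1 and 23.6), *IDH3A* (12.9 and 12.6) and *MDH1* (13.8 and 13.1) were nearly level. The median change of the 13 was 0.03.

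PR binding sites lay in or within 50 kb of 9 of the 10 receptor genes, compared with 52.7% of the 11018 retained genes. Of the other 15 retained nuclear receptor genes, 11 also had such a site. The ChIP-seq file gives 11181 sites with a MACS score, 10 times the −log10 of the p-value, from 1 library. In all, 47 sites were assigned to the 10 genes, 27 of them overlapping a locus. The assignment is by distance only, and the midpoint of 25 was nearest to the start of the assigned gene among protein-coding genes. Of the 26 sites not near *RXRA*, 3 had no other retained gene within 50 kb. The scores of the 47 sites ran from 50.45 to 127.84 with a median of 68.9, and the median of all sites was 74.5. A score of 100 or more was reached by 6 of the 47 (12.8%) and by 16.3% of all sites. *RXRB* was the exception, with its nearest site 434 kb away. Of the genes at least 1.5-fold higher, 61.4% had a site in or within 50 kb, and of those at least 1.5-fold lower, 61.0%.

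*RXRA* alone accounted for 21 of the 47 sites. Of these, 18 overlapped its locus, 16 of them in intron 1, 1 in intron 4 and 1 in exon 10 of the canonical transcript in GENCODE. Among the 11018 retained genes, only 3 had more sites in their locus (*KIAA0182* with 29, *SHANK2* with 28 and *ZFPM1* with 19), and 8537 had none. The locus of *RXRA* is 114 kb long. Of the 517 retained genes with a locus of 100 to 130 kb, the median number of sites was 0 and the highest was that of *RXRA*. The density was 15.8 sites per 100 kb in the locus and 3.80 per 100 kb in the 500 kb to each side. The sites of intron 1 lay from 24.2 to 64.9 kb after the start of the deposited transcript, with a median spacing of 2.17 kb. Their scores were moderate, from 51.9 to 124.19 with a median of 72.4. No other retained gene lay within 50 kb of any of the 21 sites. *RXRA*, with the densest sites of the 10 genes, had the log2 change of −0.56 given above.

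**Figure D4:**
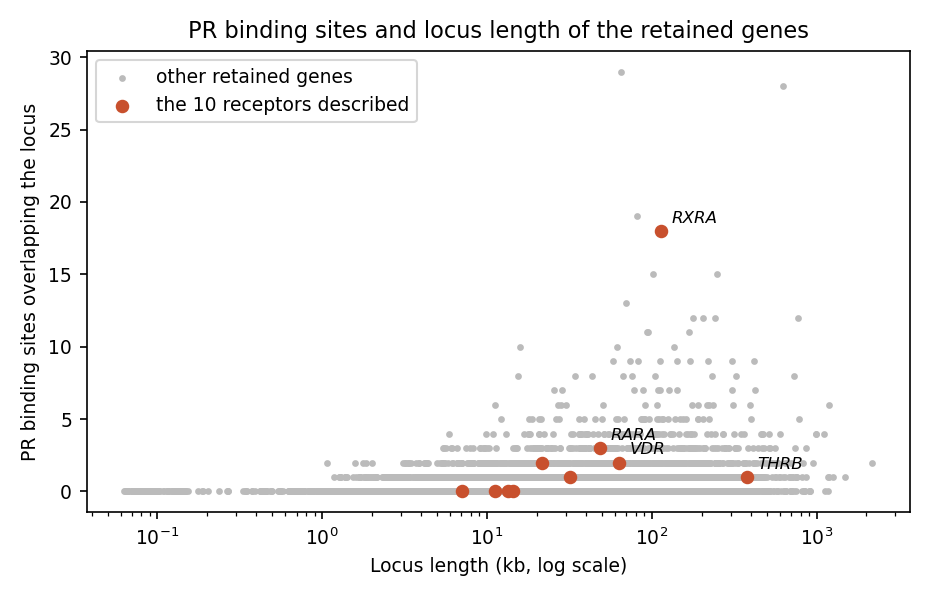
Number of PR binding sites overlapping each retained gene against the length of its locus in kb (log scale), with the 10 receptor genes in red and the others in grey. *RXRA* stands at 18 sites in 114 kb, above the other 9 receptor genes, which have 0 to 3.

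The genes that were higher in R5020 had sites of different kinds. *VDR* had 4 sites, 2 of them inside the locus. The highest, with a score of 102.59, spans 48272485 to 48273090 with its midpoint in exon 3, 26.0 kb after the start, and the other inside (78.98) was in intron 4. Another site, at a score of 68.1 and 24.7 kb before the deposited start, is inside the longer *VDR* gene of GENCODE, and the last (83.55) was in intron 13 of *HDAC7*. *THRB*, the longest of the 10 at 378 kb, had 1 site, with a score of 77.84, in intron 5 and 323 kb after the start. No other retained gene lay within 50 kb of it, and no further site within 500 kb of the locus. *ESRRA* had 8 sites and none in its own locus. Of these, 6 were upstream, 3 of them in *PLCB3* and 2 in *KCNK4*, and 2 were downstream, of which the nearer was 1.18 kb from the end of *ESRRA* and 22 bases from the start of *PRDX5*. The site in intron 1 of *KCNK4*, 12.9 kb before *ESRRA*, had the highest score of all 47, 127.84. The *ESRRA* neighbourhood is dense in sites, with 53 in the 2 flanks of 500 kb combined, and no site there can be tied to *ESRRA* from position alone.

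The genes that were lower also had sites. *RARA* had 3, all inside the locus. The highest, at a score of 110.54, lay in intron 1, 5.36 kb after the outermost start, whose transcript was lower in R5020. The inner start at 38474473, which stayed under the threshold (−0.25), is nearer to this site. Position alone therefore ties the site to neither start. The others, with scores of 78.92 and 59.16, lay in intron 2. *RARG* had 5 sites with scores from 53.23 to 67.09. A site with a score of 61.2 lay over the outer start, its midpoint 13 bases inside the gene, and this start was nearly level. Another, with 66.89, was in exon 10, and 2 lay beyond the 3′ end in *ITGB7*, with scores of 67.09 and 53.23. *NR2F6* had 1 site, at a score of 65.51 and 1.95 kb upstream of its start. Of the genes under the threshold, *THRA* had 3 sites with scores of 59.47 to 70.76 and *NR2F2* had 1, with a score of 88.43, 19.8 kb beyond its end.

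**Figure D5:**
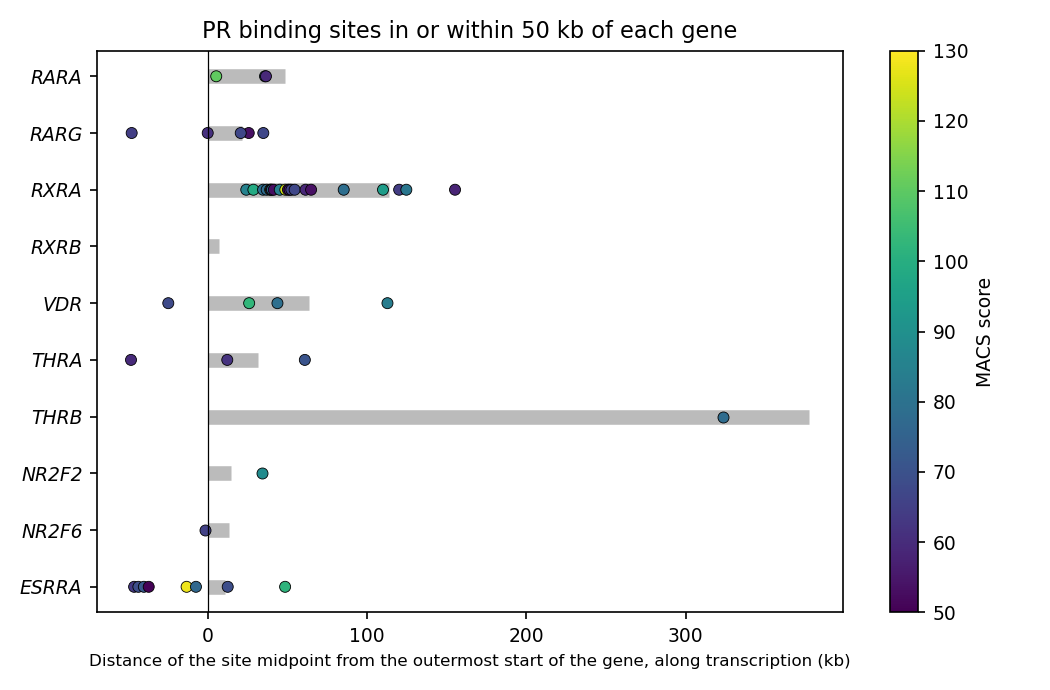
Midpoints of the 47 PR binding sites against the outermost deposited start of each gene, in kb along transcription, coloured by MACS score, with the locus as a grey bar. *RXRA* has 16 sites between 24.2 and 64.9 kb, *THRB* has 1 at 323 kb and *RXRB* has none.

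Sequences are shown for the highest scoring site of each gene past 1.5-fold, for the only site of the 47 with a PR palindrome, in *RXRA*, and for the site over the outer start of *RARG*. Each is at most 200 bases of the plus strand of GRCh37, the assembly of hg19, within the deposited site and outside annotated untranslated regions, and capitals mark a match to a searched motif on either strand. The motifs were the PR palindrome (GNACA and TGTNC with any 3 bases between), its single arm AGAACA, the forkhead motif GTAAACA and the nuclear receptor hexamer AGGTCA, to which RARs, RXRs, VDR and thyroid hormone receptors bind in pairs. The *RARG* start window holds only bases before the outer start of the deposited transcripts, inside the longer *RARG* gene of GENCODE.
RARA, chr17:38470684-38470883: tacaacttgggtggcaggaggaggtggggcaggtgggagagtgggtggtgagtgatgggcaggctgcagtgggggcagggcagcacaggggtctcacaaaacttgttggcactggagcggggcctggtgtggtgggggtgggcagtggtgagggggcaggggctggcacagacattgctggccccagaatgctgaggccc
RARG, chr12:53591004-53591203: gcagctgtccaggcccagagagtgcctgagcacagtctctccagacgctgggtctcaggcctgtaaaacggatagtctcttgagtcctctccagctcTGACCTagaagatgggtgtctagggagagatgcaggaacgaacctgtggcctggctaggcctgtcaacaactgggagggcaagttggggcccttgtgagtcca
VDR, chr12:48272899-48273090: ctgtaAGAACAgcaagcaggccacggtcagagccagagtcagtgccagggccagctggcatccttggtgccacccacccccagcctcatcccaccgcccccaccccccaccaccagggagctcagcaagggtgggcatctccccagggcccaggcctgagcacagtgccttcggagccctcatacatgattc
THRB, chr3:24212970-24213169: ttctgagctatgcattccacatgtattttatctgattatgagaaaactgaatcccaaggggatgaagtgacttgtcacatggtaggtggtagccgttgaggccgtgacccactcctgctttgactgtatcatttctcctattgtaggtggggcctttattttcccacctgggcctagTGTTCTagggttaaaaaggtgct
NR2F6, chr19:17358028-17358227: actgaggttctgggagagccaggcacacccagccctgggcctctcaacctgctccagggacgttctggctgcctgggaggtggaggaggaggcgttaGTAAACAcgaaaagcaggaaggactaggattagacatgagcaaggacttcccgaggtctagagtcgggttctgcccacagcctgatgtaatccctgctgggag
ESRRA, chr11:64059703-64059902: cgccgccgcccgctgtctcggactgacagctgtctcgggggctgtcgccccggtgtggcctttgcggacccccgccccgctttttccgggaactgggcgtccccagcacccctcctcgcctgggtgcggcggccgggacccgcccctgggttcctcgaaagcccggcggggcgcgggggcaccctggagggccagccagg
RXRA, chr9:137266936-137267135: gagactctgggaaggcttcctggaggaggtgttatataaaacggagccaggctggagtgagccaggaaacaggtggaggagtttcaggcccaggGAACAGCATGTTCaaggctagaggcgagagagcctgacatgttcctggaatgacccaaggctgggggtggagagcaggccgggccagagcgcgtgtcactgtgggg
RARG, site over the outer start, chr12:53626041-53626240: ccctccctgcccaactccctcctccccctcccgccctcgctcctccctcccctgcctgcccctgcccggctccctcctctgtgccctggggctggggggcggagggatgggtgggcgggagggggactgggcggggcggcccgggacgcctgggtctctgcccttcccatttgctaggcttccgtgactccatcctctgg

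The sequence of *RXRA* holds the palindrome as GAACAGCATGTTC, in the site with the highest score of that gene, 124.19. The *VDR* and *THRB* sequences each hold the single arm AGAACA, read as TGTTCT on the plus strand in *THRB*. *NR2F6* holds the forkhead motif. The first *RARG* sequence holds the nuclear receptor hexamer, as TGACCT. It comes from the site with a score of 67.09, in intron 5 of *ITGB7* and 12975 bases from the *RARG* locus. The sequences of *RARA* and *ESRRA* and of the *RARG* start hold none of the 4 motifs in the bases shown. Outside the bases shown, the site over the *RARG* start and the *VDR* site each hold 1 match to AGGTCA. The *ESRRA* site was 74.3% G or C over its length.

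Across the 47 sites, the palindrome was in 1 (2.13%), beside 2.40% of the 11178 sites on reference chromosomes and 0.805% of windows of the same length 5 kb to each side of them. In the windows beside the 47 sites it was in 2 of 94 (2.13%). AGAACA was in 11 of the 47 (23.4%) and in 22.3% of the windows beside them, and in 25.2% of all sites and 27.2% of the windows beside those. AGGTCA was in 14 of the 47 (29.8%) and 34.0% of their windows, and in 29.6% of all sites and 31.7% of windows. GTAAACA was in 1 of the 47 (2.13%) and 3.19% of their windows, and in 4.07% of all sites and 5.18% of windows. Over all sites these 3 motifs were thus less frequent than in the windows, and the palindrome more frequent. The median G and C content was 62.7% in the 47 sites and 59.6% in the windows beside them. It was 56.7% in all sites and 48.7% in the windows beside all sites. A match of letters is not a bound element, and its absence says nothing of binding.

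The markers matched the labelled cell type. The 9 luminal breast markers were retained in at least 1 condition, with *KRT19* at 608 in EtOH and 477 in R5020, *EPCAM* at 62.2 and 55.6, and *CDH1* at 102 and 99.2. *KRT8* and *KRT18* were listed at 0 in EtOH with a failed status, so their change is not read here. They nevertheless count among the 845 genes called higher over all genes. *GATA3* (253 and 126) and *FOXA1* (64.3 and 14.7) were lower in R5020. Of 8 markers of other cell types, 7 were under an FPKM of 1 in both conditions, with a highest value of 0.527, and *ACTA2* was at 1.93 and 1.35. *HBB* and *ALB* were at 0. The coverage corresponded to 35151493 reads in EtOH and 36203604 in R5020.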

How the data were processed

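For RNA-seq the authors isolated poly(A)+ RNA, made ScriptSeq libraries, sequenced 50-bp paired ends, aligned them to hg19 with TopHat2 and discarded reads with several positions. The authors deposited for each transcript the FPKM estimated with Cufflinks, its interval, a status and a coverage (mean read depth). Ensembl and RefSeq are both named as the annotation, and the deposited identifiers are RefSeq. For ChIP-seq the authors aligned reads with Bowtie 1.1.2 per the labels, called sites with MACS against input DNA and deposited positions with a score of at least 50. The input library was not analysed here.

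FPKM was summed by gene symbol, genes reaching an FPKM of 1 in either condition were retained, and 1.5-fold on log2(FPKM + 1) was the threshold, without the p-value the authors used. Transcripts with a status other than OK were left out only where interval midpoints were used, so the shares over all genes include them. A gene was tied to a site when their nearest edges lay within 50 kb, over the extent of its transcripts on chromosomes. Positions are 1-based. Sites were annotated by midpoint with protein-coding genes of GENCODE on GRCh37, and 3 of the 11181 sites lay on sequences not in that assembly. The 10 genes and the gene lists were chosen with earlier results of these data known. Genes named are the 10, all list genes past 1.5-fold (up to 5 per list and direction) and the nearest other receptor. The *RARG* start site, the *RXRA* sequence, *NR1D1*, *TRMT112*, the 3 genes with more sites than *RXRA*, and other list genes were named after their values were seen. Some genes that this rule names are not reported here. Calls, distances and motif search were tested on simulated data. Python 3.11.15, pandas 2.3.3 and numpy 2.4.6 were used. With 1 library per condition no spread between cultures is known, no test was made and no replicate could be left out. Alternatives are given in the closing section.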

Additional observations from a re-analysis of the deposited data

How the results depend on the processing

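No paired analysis was possible because there is 1 library per condition, and for the same reason none could be left out. Of 60 alternative values for the 10 changes, 56 kept their direction and their side of 1.5-fold, or stayed under it, and 0 turned a called direction. *RXRA*, beside the threshold in the main setting, passed 1.5-fold with a pseudocount of 0.1 (−0.60) and with none (−0.60). It also passed with reads from coverage scaled to the total (−0.71). In that setting the median change of all retained genes was −0.08, against 0.01 in the main setting. *NR2F6* lost its call with interval midpoints (−0.52). No pseudocount, reads from coverage, interval midpoints and all alternatives for the other receptors were chosen after seeing the data. The 2-fold threshold left 2 genes higher and 0 lower. Counts under the other settings were 3 higher and 2 to 4 lower. Restricting sites to a score of 100 or more left 4 genes with a site within 50 kb, beside 18.1% of retained genes. Within 10 kb there were 8, beside 33%, and within 100 kb 9, beside 64.3%. Over all genes 845 were higher and 456 lower, against 378 and 144 at 2-fold, 1092 and 787 with a pseudocount of 0.1, 1068 and 773 with none, 662 and 299 where both conditions had to reach an FPKM of 1, and 888 and 1073 with reads scaled to the total. The low reads behind *RARG* in R5020 (579) limit its transcript shares.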
